A study of Mus musculus with 6 samples.

Results

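The hemoglobin genes Hba-a1, Hba-a2, Hbb-bs and Hbb-bt and the heme synthesis gene Alas2 were followed through single-cell transcriptomes of the adult mouse olfactory bulb. The genes were chosen by name, and all 5 were among the 18560 genes of the count table. Their unique molecular identifiers (UMIs, each marking 1 captured transcript 3′ end) were read in 51426 cells that the authors had assigned to 38 clusters. Of these cells, 219 belonged to the red blood cell cluster and 51207 lay outside it.

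The 6 libraries came from bulbs of C57BL/6NJ mice aged 14 weeks and formed 3 conditions of 2 libraries each. Control mice were described in the labels simply as controls; the study's text calls them naive and, in one place, names the open side of occluded mice as control. Naris occluded mice had 1 nostril blocked for 6 weeks, which removes odor input to the bulb on that side. Trained mice were water deprived and worked for 6 weeks on an odor discrimination task. Each library pooled 3 mice, all male in replicate 1 and all female in replicate 2, so sex and replicate number cannot be told apart, and single animals cannot be seen. All mice were perfused with saline through the heart before dissection, which flushes blood from the vessels without removing all of it. The male- and female-specific transcripts Ddx3y and Xist fitted the stated sex in 6 of 6 libraries.

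Hemoglobin is a tetramer of alpha chains (Hba-a1, Hba-a2) and beta chains (Hbb-bs, Hbb-bt, the adult beta genes of the mouse strain group to which C57BL/6 belongs), each holding a heme. Alas2 is the erythroid enzyme that starts heme synthesis, and its close relative Alas1 does the same in other cells. Young circulating red cells, the reticulocytes, have lost the nucleus but still carry a residue of these transcripts. Hemoglobin transcripts have also been described in endothelium and in some dopaminergic neurons, and they are a common constituent of the free RNA that enters every droplet of a single-cell preparation.

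The alpha genes lie beside each other at chr11:32283672-32284486 (Hba-a1) and chr11:32296492-32297310 (Hba-a2), on the forward strand of GRCm38, the build that the labels call mm10. The beta genes lie on the reverse strand at chr7:103826523-103827928 (Hbb-bs) and chr7:103812524-103813923 (Hbb-bt). Alas2 lies on the forward strand at chrX:150547417-150570622. The 250 bases before each annotated start (RefSeq, GRCm38.p6, all 5 genes matched) are shown because the 5 transcripts peaked in the same cluster. Capitals mark a GATA factor motif, written AGATAA or, with another first base, TGATAA. They also mark the Klf factor motif CACCC and the CCAAT box, and these 3 motifs were searched on both strands. The last motif marked is the TATA box, searched as TATAA on the gene strand in the last 40 bases. Marked motifs could overlap.
Hba-a1: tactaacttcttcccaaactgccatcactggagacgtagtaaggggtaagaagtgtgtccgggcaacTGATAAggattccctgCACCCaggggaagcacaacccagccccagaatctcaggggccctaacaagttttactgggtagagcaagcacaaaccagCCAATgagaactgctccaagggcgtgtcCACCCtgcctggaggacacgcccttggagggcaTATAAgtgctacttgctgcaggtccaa
Hba-a2: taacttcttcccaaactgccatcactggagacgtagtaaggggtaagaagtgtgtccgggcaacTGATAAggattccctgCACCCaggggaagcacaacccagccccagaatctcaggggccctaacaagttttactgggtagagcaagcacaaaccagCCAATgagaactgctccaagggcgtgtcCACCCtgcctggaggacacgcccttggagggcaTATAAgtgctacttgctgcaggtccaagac
Hbb-bs: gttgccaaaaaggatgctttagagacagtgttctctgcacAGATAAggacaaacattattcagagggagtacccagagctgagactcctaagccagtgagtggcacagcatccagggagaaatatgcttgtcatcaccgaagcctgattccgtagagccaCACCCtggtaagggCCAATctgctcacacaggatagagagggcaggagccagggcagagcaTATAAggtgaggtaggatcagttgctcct
Hbb-bt: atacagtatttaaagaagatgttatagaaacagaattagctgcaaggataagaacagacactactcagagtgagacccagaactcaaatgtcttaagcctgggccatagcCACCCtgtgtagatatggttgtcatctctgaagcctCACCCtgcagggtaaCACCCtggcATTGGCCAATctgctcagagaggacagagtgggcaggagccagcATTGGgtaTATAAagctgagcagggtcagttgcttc
Alas2: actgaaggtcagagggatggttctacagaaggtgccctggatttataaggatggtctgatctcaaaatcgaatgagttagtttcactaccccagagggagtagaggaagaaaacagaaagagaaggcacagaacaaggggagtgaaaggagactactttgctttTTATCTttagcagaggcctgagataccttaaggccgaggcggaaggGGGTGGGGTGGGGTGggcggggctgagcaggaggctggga

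These windows span chr11:32283422-32283671, chr11:32296242-32296491, chr7:103827929-103828178, chr7:103813924-103814173 and chrX:150547167-150547416, in the order shown. The windows of Hba-a1 and Hba-a2 were 97.6% identical in alignment, against 70.9% for Hbb-bs and Hbb-bt and 48.3 to 51.8% for the other pairs. CACCC was found before all 5 genes and before 52.0% of 32851 annotated mouse promoters of the same length. AGATAA or TGATAA was found before 4 of the 5 genes, not Hbb-bt, and in 16.6% of all promoters. CCAAT stood before the 4 hemoglobin genes and in 33.8% of promoters, and the TATAA letters before the same 4 and in 4.23%. These matches are a description of letters and not of bound sites. Because the alpha genes are near-identical copies, the division of reads between them is uncertain throughout.

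Hemoglobin RNA was concentrated in the red blood cell cluster. Its 219 cells, 0.426% of those annotated, held 718252 of 771603 hemoglobin UMIs, or 93.1%. A further 42194 UMIs (5.47%) lay in 55 cells outside the cluster that each held at least 10, called hemoglobin-high cells here. The remaining 51152 cells held 11157 UMIs (1.45%), at most 9 per cell. Alas2 followed the same order, with 773 UMIs in the cluster, 25 in the hemoglobin-high cells and 19 in all other cells. These 3 compartments are described in turn. Clusters were built from the same counts, so levels by cluster carry no test.

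**Figure D1:**
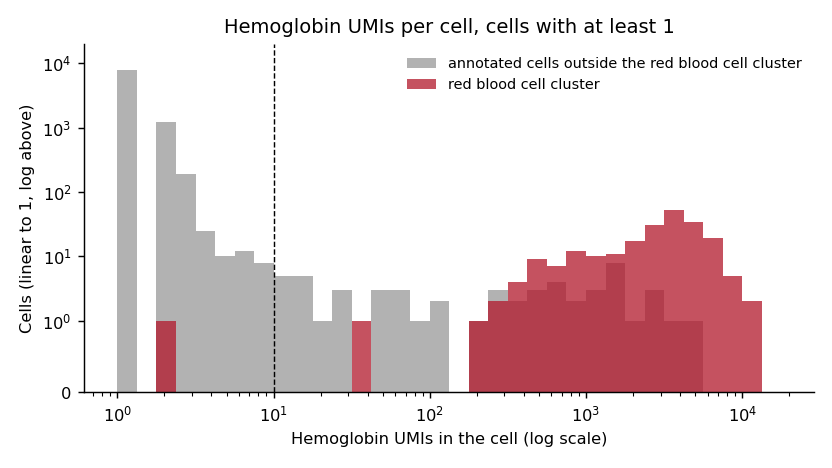
Number of cells (vertical axis, linear to 1 and logarithmic above) by their hemoglobin UMIs (horizontal axis, log scale, cells with at least 1) in the red blood cell cluster (red) and outside it (grey), with a dashed line at 10 UMIs. Most grey cells hold 1 UMI, and 55 lie at or beyond the line, reaching into the range of the red cells.

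In the red blood cell cluster the 4 hemoglobin genes were the 4 most abundant transcripts. UMIs were summed over the cells of the cluster in each library and given per 1000000 UMIs of all genes (CPM). Hbb-bs averaged 390434 ± 34558 CPM (SD, n = 6 libraries), Hba-a1 199183 ± 13719 and Hba-a2 166031 ± 9904. Hbb-bt, the minor beta gene, averaged 63948 ± 6093 CPM. Alas2 ranked 20th at 870 ± 136 CPM. One captured 3′ end gives 1 UMI whatever the transcript's length, so no division by length was made. The next transcript after hemoglobin was mitochondrial mt-Atp6 at 6494 ± 1438 CPM.

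Single red cells were rich in UMIs and poor in genes. The median cell of the cluster had 3894 UMIs from 285 genes, against 1348 UMIs from 780 genes outside it. Hemoglobin made up a median 86.8% of its UMIs, with quartiles at 68.8 and 91.2%. The mitochondrial share had a median of 2.72%, against 11.1% outside. All 4 hemoglobin genes were detected in 217 of the 219 cells and Alas2 in 172 (78.5%). One cell went against its label. It had 2 hemoglobin UMIs among 16363 UMIs from 3516 genes, in naris occluded replicate 1.

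The label fitted the defining markers. Apart from hemoglobin, 8 of 8 red cell markers reached their highest level of the 38 clusters here, counted per 1000000 UMIs other than hemoglobin. The cell that went against its label, with 16363 UMIs, was kept in these sums and in those below. It adds to the non-hemoglobin UMIs of naris occluded replicate 1 and so lowers red cell values there. Mkrn1 stood at 4100 ± 1980, against 171 in the next cluster, and Bpgm, the enzyme that makes 2,3-bisphosphoglycerate, at 3256 ± 1295. Markers of other cells were present at lower levels. Endothelial markers summed to between 221 and 1320 per 1000000 over the 6 libraries, and markers of olfactory ensheathing cells, the glia of the olfactory nerve, to between 2378 and 10182. Markers of oligodendrocyte precursors (3 genes) and mesenchymal cells (4 genes) were at 0 UMIs. Of the 4 platelet markers, Itga2b and Gp9 were at 0 too, while Pf4 gave 2 UMIs and Ppbp 1.

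The rest of the heme pathway was present but unequal. All 9 heme synthesis genes had UMIs in the red cells, and 5 of them, Alas2 and Fech included, reached their highest cluster level there, against 3.67% of all 18560 genes and 6.02% of the 11335 with a UMI in red cells. Alas2 stood at 5342 ± 2271 per 1000000 non-hemoglobin UMIs and Fech, which inserts iron to close the pathway, at 1121 ± 561. Urod stood at 167 ± 181 and Alad at 118 ± 163, from 25 and 15 UMIs. Alas1 was at 6.69 per 1000000 in red cells and highest in the endothelial cluster EC1, at 275. Cpox was highest in myelinating oligodendrocytes (432 per 1000000, against 115 in red cells).

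Among the other globins, 4 of 7 measured genes were highest in the red cells. The embryonic beta-like gene Hbb-bh1 gave 37 UMIs in 34 cells, and Hba-x 5, Hbq1a 9 and Hbq1b 14. Neuroglobin (Ngb) had none, which allows up to 3 UMIs, and Cygb was highest in neuronal cluster N13. Reads could be shared between such relatives, so these low counts are uncertain. Of 13 red cell membrane genes 8 were highest in the cluster, among them Slc4a1 (band 3), Sptb and Epb41. Of 11 regulators and maturation genes 7 were, with Bnip3l, which clears mitochondria from reticulocytes, at 2421 ± 1218 and the erythroid factor Klf1 at 49.7 ± 65.1, from 8 UMIs in 3 cells. Of 13 red cell enzymes and other red cell RNAs 11 were. None of 13 genes of heme and iron handling outside red cells was highest there, and Cd163, Hp and Hpx, which clear free hemoglobin and heme, had no UMIs in the cluster.

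Other genes had patterns like those of the members. Over the 38 cluster means of log2(CPM + 1), genes among the 5 with the highest Pearson r to Hba-a1 included Rec114 (0.66), Ube2l6 (0.59), Isg20 (0.56) and Isca1 (0.51). The same genes were among the leading 5 for Hbb-bs, with Rec114 at 0.69. For Alas2, Rec114 reached 0.73, Isca1 0.68 and Isg20 0.62, and Fam220a took the fifth place at 0.56. Between members r lay between 0.79 (Hba-a1 with Alas2) and 0.99 (Hba-a1 with Hba-a2). Without the red cell cluster, the genes most like Hbb-bs were Fgd5, Clic5, Ltbp4, Lsr and Slc52a3 (0.61 to 0.66), all highest in endothelial cluster EC1. These means include the hemoglobin-high cells, and Hbb-bs in EC1 was 2199 CPM with its 11 such cells and 76.1 without, where EC1 ranked 23rd of 37 clusters. The points share libraries and depth, so these are descriptions.

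The proportions of the 4 hemoglobin transcripts were stable between libraries. In the red cell cluster Hbb-bs made up 49.0 and 47.9% of hemoglobin UMIs in control replicates 1 and 2, 44.5 and 45.7% in the naris occluded pair and 49.9 and 48.7% in the trained pair. Both naris occluded libraries were thus the lowest of the 6. Hba-a1 ranged from 23.5 to 25.5%, Hba-a2 from 19.0 to 22.1% and Hbb-bt from 7.15 to 8.42%. Alpha transcripts together averaged 44.6 ± 1.9% (SD, n = 6), and in single cells 90% of values lay between 36.6 and 54.2%.

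Within the cluster, Hbb-bt divided the cells. Its share of hemoglobin UMIs peaked between 1 and 2% in 26 cells and again between 7 and 10%, with only 4 cells between 2 and 3%. A limit of 4%, set after seeing these values, put 47 cells below and 171 at or above. The low cells held a median of 883 hemoglobin UMIs, against 3770, and hemoglobin was 61.0% of their UMIs against 89.2%. Their UMIs from other genes were alike in number, 478 and 457. The mitochondrial share was 8.25% in the low cells and 2.34% in the others. Both kinds occurred in all 6 libraries, with 16 of 80, 8 of 23, 10 of 53, 7 of 30, 3 of 21 and 3 of 11 cells below the limit, in the order control, naris occluded and trained.

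Alas2 was detected less often in the low-Hbb-bt cells, and their other red cell markers were lower. Alas2 was detected in 16 of the 47 (34.0%) and in 156 of the 171 (91.2%). Within the narrower range from 1000 to under 3000 hemoglobin UMIs, with medians of 1574 in the low cells and 2365.5 in the others, Alas2 was found in 8 of 17 low cells (47.1%, exact binomial interval 23.0 to 72.2) and 42 of 46 others (91.3%, 79.2 to 97.6). Per 1000000 hemoglobin UMIs, however, Alas2 in this range was 846 (24 UMIs) and 950 (99 UMIs). The 7 red cell markers other than Alas2 summed to 0.867 UMIs per 1000 hemoglobin UMIs in the low cells and 3.69 in the others. Over all contents, the low cells had the lower marker level in 6 of 6 libraries, at most 1.27 per 1000 against at least 3.41. From 1000 to under 3000 hemoglobin UMIs the pooled values were 0.916 and 1.91. Intervals here and below cover counting error only, and cells of 1 library are not independent samples.

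**Figure D2:**
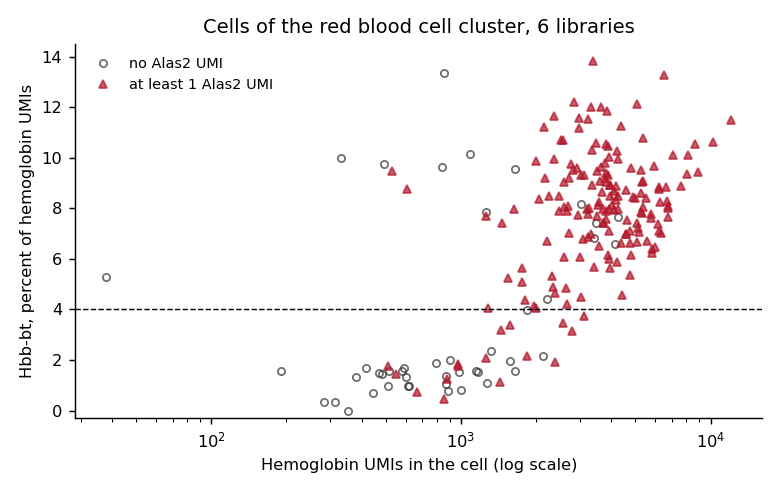
Share of Hbb-bt among hemoglobin UMIs (vertical axis, percent) against hemoglobin UMIs per cell (horizontal axis, log scale) for the 218 red blood cell cluster cells with at least 10, with filled triangles for cells with an Alas2 UMI and open circles for those without. The 47 cells under the dashed line at 4% sit mostly at low hemoglobin content, and most of them lack Alas2.

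The hemoglobin-high cells outside the cluster were scattered over 25 of the other 37 clusters. Of the 8 cell classes, neurons held 17, of 22501 cells (0.0756%), and endothelium 15, of 3648 (0.411%), of which 11 were in EC1 (0.436%). By cluster the share was higher in Mural1 (1.27%), Mes2 (0.870%) and N3 (0.846%), on 2, 2 and 4 cells. All libraries had some, with 13, 7, 11, 14, 4 and 6 cells in the order control, naris occluded and trained. The highest was an EC1 cell of naris occluded replicate 1 with 4404 hemoglobin UMIs (974 Hba-a1, 886 Hba-a2, 2150 Hbb-bs and 394 Hbb-bt), 59.9% of its total, and 7 Alas2 UMIs.

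They fell along a range of content. In 24 cells with 500 or more hemoglobin UMIs, all 4 genes were present, alpha transcripts took 29.1 to 54.7%, and 9 cells had Alas2. Their median depth was 2.89 times the median of their own cluster and library with hemoglobin counted, and 1.66 times without it. The other 31 cells had no Alas2 UMI. These smaller cells were less even in composition. In 10 of the 55 alpha transcripts were 80% or more of hemoglobin UMIs, a share that no red cell reached (highest 65.5%), and each of these 10 had 201 hemoglobin UMIs or fewer. An example is an N3 neuron of naris occluded replicate 1 with 60 Hba-a1, 49 Hba-a2, 9 Hbb-bs and 1 Hbb-bt UMIs. Hbb-bt was under 4% in 39 of the 55, against 47 of 218 red cells with at least 10 hemoglobin UMIs. Of the 24 cells with 500 or more, 13 were under 4%. Of the 21 cells under 100, 16 were, with a median Hbb-bt share of 0, so few counts set this share.

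Markers of the own cluster were measured in the high cells of EC1 and MicroG3, and not in the others. In the 11 EC1 cells endothelial markers (Cldn5, Flt1, Pecam1, Ly6c1, Slco1c1) made up 14587 per 1000000 non-hemoglobin UMIs, against 15126 in the other EC1 cells and 641 in the red cells. In the 3 high cells of microglial cluster MicroG3 microglial markers stood at 17290, against 8212 in the rest of MicroG3. Red cell markers other than Alas2 stood at 1561 per 1000000 in the 24 cells with 500 or more hemoglobin UMIs and at 506 in the 31 others, against 536 in cells under 10 and 15784 in the red cells. Per 1000 hemoglobin UMIs, the same markers stood at 2.90 in the 24 cells, 8.36 in the 31 others, 4132 in cells under 10 and 3.49 in the red cells. The marker level of cells under 10 was not subtracted, so these values do not compare directly with red cells. The authors had removed doublets (droplets holding 2 cells), and no further doublet call was made; whether hemoglobin-high cells were droplets shared with a red cell was not tested.

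**Figure D3:**
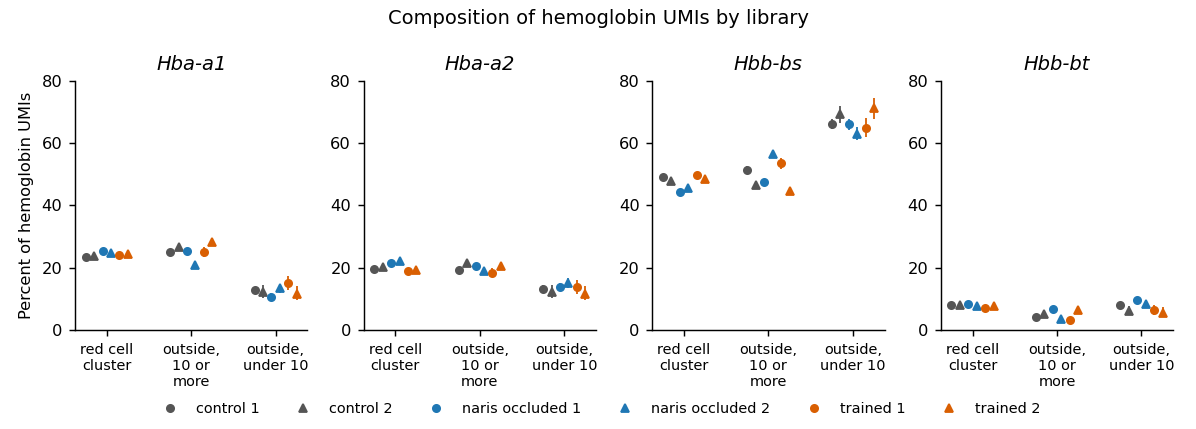
Share of each hemoglobin gene (vertical axes, percent of hemoglobin UMIs) in the red blood cell cluster, in cells outside it with 10 or more hemoglobin UMIs and in cells outside it with fewer, for each library (circles replicate 1, triangles replicate 2, bars exact 95% binomial intervals). Hbb-bs lies between 44.5 and 49.9% in red cells and between 63.1 and 71.2% in the cells under 10, with no overlap, while Hba-a1 and Hba-a2 are lower there.

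Among the 51152 cells with under 10 hemoglobin UMIs, 9332 (18.2%) had at least 1. Of these, 7881 had 1 UMI, 1206 had 2, 190 had 3 and the rest had 4 to 9. The signal was thus spread thinly, and it differed from the red cells in composition. Hbb-bs took 66.8 ± 2.9% of hemoglobin UMIs (SD, n = 6), against 47.6 ± 2.1% in red cells. Hba-a1 took 12.6 ± 1.5% against 24.3 ± 0.7%, and Hba-a2 13.3 ± 1.2% against 20.3 ± 1.3%. The shift had the same direction in 6 of 6 libraries for each of these 3 genes. As a share of all hemoglobin UMIs Hbb-bt did not separate, at 7.29 ± 1.55% against 7.80 ± 0.42%. As a share of beta transcripts it was lower in each library, at 9.85 ± 2.14% against 14.1 ± 1.09%. Alas2 per 1000000 UMIs of Alas2 and hemoglobin was 1700 in these cells (exact binomial interval 1024 to 2654), 1075 (1001 to 1154) in red cells and 592 (383 to 874) in the hemoglobin-high cells.

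Hbb-bs was the largest part in each cell type. In 36 clusters with at least 50 hemoglobin UMIs from cells under 10, the Hbb-bs share ran from 55.7% (macrophages) to 73.1% (MicroG3). Over 8 cell classes it ran from 59.5% (interval 52.0 to 66.6) in mural cells, the contractile cells of vessel walls, to 69.8% (67.0 to 72.6) in astrocytes. Both were picked as the extremes of the 8, so their intervals are no test of a difference. The alpha share ran from 21.0% (N14) to 35.3% (EC2) over the clusters. Hbb-bt ran from 1.89% (1 of 53 UMIs, N4) to 17.3% (9 of 52, Mural1), with intervals that overlapped. These shares are pooled over libraries, which contributed unequally to each cluster and themselves differed in composition. For Hbb-bs, all 8 classes lay above the 49.9% of the highest red cell library. Barcodes that carried no cluster name, outside the annotated cells, gave 68.0%. Alas2 was at 0 in 23 of the 37 clusters, and its 19 UMIs lay in 19 cells.

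Level followed depth. Pooled over libraries, hemoglobin UMIs per cell were 0.102 in cells of up to 600 UMIs (which came from 4 libraries), 0.134 at 600 to 800 and 0.736 in cells above 5000, while CPM, as a mean over libraries, was 162 in the shallowest cells, 208 at 600 to 800 UMIs and 91.3 above 5000. Across the 37 clusters, Spearman's rho with median depth was 0.87 for UMIs per cell and -0.80 for CPM, as a description of clusters that share libraries. By CPM the 3 highest clusters were neuronal N6 (291 ± 164, SD over 6 libraries), N9 (221 ± 119) and N7 (208 ± 186), with median depths of 655, 720 and 687 UMIs. The 3 lowest were N16 (95 ± 70.6), Mural1 (81.8 ± 62.8) and N2 (79.3 ± 43.1), with median depths of 4028.5, 3490.5 and 3568.5 UMIs. Each of the 36 neighbouring pairs in this order differed by less than the spread over libraries, which includes differences that the clusters share. Relative to its own library, N6 stood at 2.30 ± 0.527 (SD, n = 6) and above 1 in 6 of 6 libraries. Its gap of 0.535 to the next cluster, N9 (1.76 ± 0.194), exceeded the spread.

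Endothelium and dopaminergic periglomerular neurons were examined because hemoglobin RNA is known from such cells. Under 10 UMIs per cell, EC1 stood at 113 ± 64 CPM and EC2 at 175 ± 104, against a median of 115 over the clusters. With the hemoglobin-high cells included, EC1 rose to 4483 ± 4555, behind MicroG3 and Mural1 among clusters other than red cells, so that a few cells set this level. The Th-expressing neurons n05-PGC-2, in the authors' second annotation of neurons, were the lowest of 18 neuronal clusters at 108 ± 82 CPM. Thinned to 500 UMIs per cell, 6.99% of n05-PGC-2 cells would hold a hemoglobin UMI, against 6.92% of all cells under 10 (unthinned 21.8 and 18.2%; no annotated cell had fewer than 500 UMIs).

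To set depth aside, the UMIs of each cluster were compared with the number expected from all cells under 10 of the same library and depth. The ratio's interval held 1 for 28 of 37 clusters, among them EC1 (0.933, exact Poisson interval 0.854 to 1.02) and EC2 (1.13, 0.988 to 1.29). In EC2 the alpha genes lay above 1, Hba-a1 at 1.49 (1.06 to 2.04) and Hba-a2 at 1.45 (1.03 to 1.98), with Hbb-bs at 0.997. For the sum, the interval lay above 1 in 5 clusters. The highest were N11 at 1.45 (1.30 to 1.61) and N6 at 1.39 (1.27 to 1.51). N14, largely mitral and tufted cells (the output neurons of the bulb), stood at 1.31 (1.09 to 1.56), OPC at 1.20 and N9 at 1.16. N11, N6, N14 and N9 were above 1 in 6 of 6 libraries, N11 between 1.21 and 1.59 and N6 between 1.17 and 1.80. OPC was above in 3 of 6.

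By gene, the excess in N6 was 1.69 for Hba-a1 (1.37 to 2.06) and 1.36 for Hbb-bs (1.22 to 1.51). In the second annotation 87.2% of N6 cells were n13-AstrocyteLike, which the authors counted among ambiguous neuronal types. Below 1 lay 4 clusters, MicroG3 at 0.697 (0.562 to 0.854), and below 1 in 6 of 6 libraries, and the ensheathing clusters OEC2, OEC3 and OEC4 at 0.897 to 0.924. The whole range of ratios between the 37 clusters was 0.697 to 1.45. These ratios are matched for depth and library, so they do not compare directly with unmatched means. Without matching, hemoglobin UMIs per cell ran from 0.104 to 0.466 between clusters (means over libraries) and from 0.0876 to 0.420 between libraries. The intervals are not adjusted for the number of clusters.

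**Figure D4:**
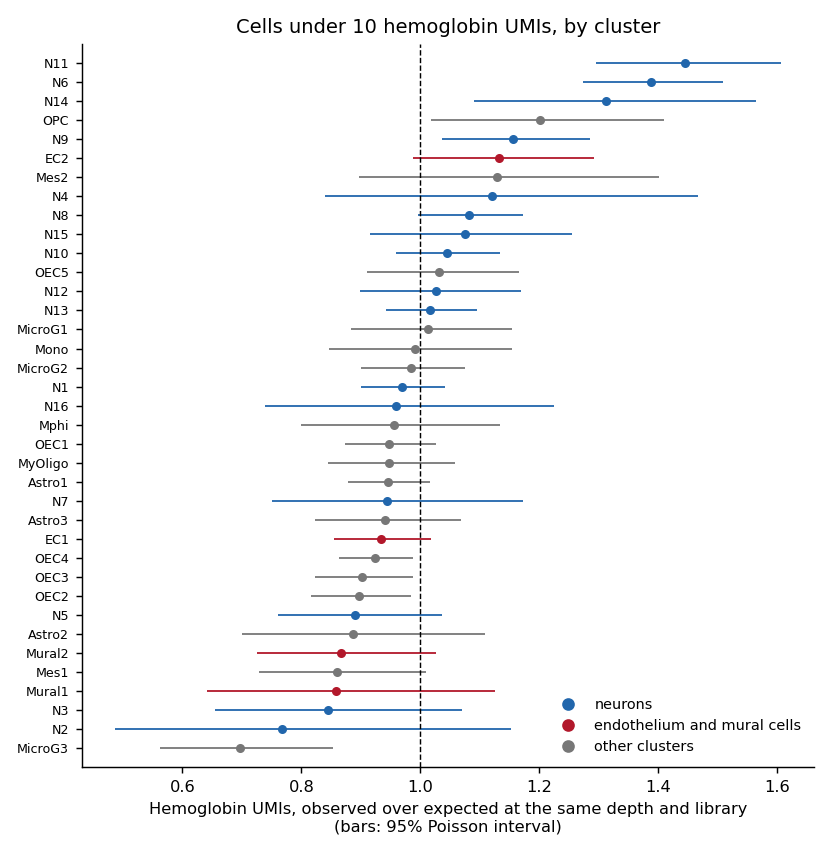
Observed over expected hemoglobin UMIs (horizontal axis, ratio, bars 95% Poisson intervals) for the 37 clusters outside red blood cells, in cells under 10 hemoglobin UMIs and matched for depth and library. Most intervals cross the dashed line at 1, and the neuronal clusters N11, N6 and N14 stand farthest to the right, with MicroG3 farthest to the left.

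Between libraries the thin signal and the number of red cells varied together. Red cells made up 0.80 and 0.298% of annotated cells in control replicates 1 and 2, 0.741 and 0.328% in the naris occluded pair and 0.199 and 0.164% in the trained pair. Hemoglobin UMIs per cell under 10 were 0.333 and 0.135, then 0.420 and 0.230, then 0.0876 and 0.114. Control replicate 1 and naris occluded replicate 1 were highest in both measures and both trained libraries lowest. Over the 6 libraries Pearson's r was 0.93 (exact permutation p = 0.0139, adjusted over 6 relations 0.0167) and Spearman's rho 0.89 (exact p = 0.0333, adjusted 0.04). The smallest p that these pairings allow for Spearman's rho is 0.00278.

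Single members behaved alike, with r from 0.89 (Hbb-bt) to 0.98 (Alas2), the last from only 19 UMIs over the 6 libraries. For Alas2, rho was 0.83 with an exact permutation p of 0.0583 after adjustment. Without the 2 libraries farthest from the median share, control replicate 1 and naris occluded replicate 1, r for the sum was 0.80 over 4 libraries (exact permutation p = 0.167). At this n the p no longer passed, while r stayed between 0.66 (Alas2) and 0.81 (Hba-a1) for the single members. Within conditions, the library with more red cells had the higher value in the control and naris occluded pairs, and the lower value in the trained pair. Conditions are mixed in this relation, and with 3 libraries of each replicate number no value within sexes was computed. When the hemoglobin-high cells were counted in, r for the sum was 0.57 (exact permutation p = 0.285).

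**Figure D5:**
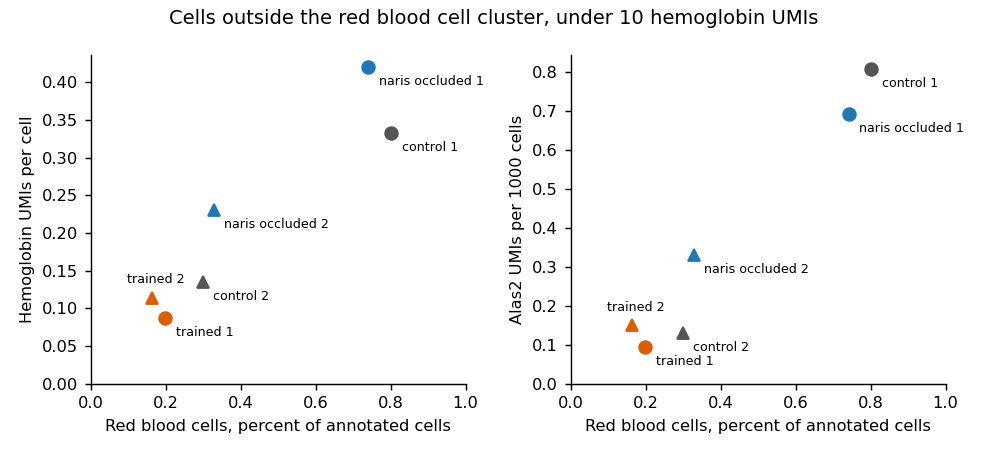
Hemoglobin UMIs per cell (left) and Alas2 UMIs per 1000 cells (right) in cells outside the red blood cell cluster with under 10 hemoglobin UMIs, against the percent of annotated cells in that cluster, for each library (circles replicate 1, triangles replicate 2). Control 1 and naris occluded 1 lie at 0.741% or more red cells and at 0.333 hemoglobin UMIs per cell or more, apart from the other 4 libraries.

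Red cell numbers were then compared between conditions, with the counts of all 38 clusters in edgeR's quasi-likelihood test and Benjamini-Hochberg adjustment. The numbers were 80 and 23 cells in control, 54 and 30 in naris occluded and 21 and 11 in trained libraries. Trained libraries had the lowest shares, without overlap with the other 4. Against naris occluded, log2 fold change was -1.51 (SE 0.53, adjusted p = 0.0408), in a comparison that called 21.1% of the 38 clusters. This call was lost with TMM scaling or DESeq2 and without any of 5 of the 6 libraries (adjusted p 0.0547 to 0.423), and it was kept without naris occluded replicate 2 (-2.0, adjusted p = 0.0113). Against control it was -1.60 (SE 0.52, adjusted p = 0.171), where 0% of clusters were called (3 at an unadjusted p under 0.05, and 0 by DESeq2), and -1.59 with adjusted p = 0.0456 in edgeR with the replicate number as a block. Naris occluded and control did not differ beyond the spread (-0.09, SE 0.47, adjusted p = 0.933, 2.63% of clusters called).

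Replicate 2, the female pools, had fewer red cells than replicate 1 in 3 of 3 conditions, at 0.298 against 0.80% of cells, 0.328 against 0.741% and 0.164 against 0.199%. The log2 difference was -1.08 (SE 0.39, adjusted p = 0.0788 by edgeR), where 5.26% of clusters were called. It passed in edgeR with TMM scaling (-1.17, adjusted p = 0.0483) and did not by DESeq2 (-1.03, adjusted p = 0.314). When single libraries were left out, the log2 difference lay between -1.29 and -0.84. The blood left after perfusion was not recorded, so the number of red cells in the tissue and the completeness of perfusion cannot be told apart.

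No member was called between conditions within the red cell cluster. By edgeR, over 266 genes, 0 of 5 members passed an adjusted p of 0.05 in naris occluded against control (0.376% of genes called), trained against control (0%), trained against naris occluded (0%) or replicate 2 against replicate 1 (0%). None passed an unadjusted 0.05 either, where 25, 3, 26 and 6 of the 266 genes did in the same order, nor DESeq2. Hbb-bs stood at 403180 and 399968 CPM in control, 367923 and 336283 in naris occluded and 397624 and 437627 in trained libraries. Both naris occluded libraries lay below the other 4. Its largest fitted difference was trained against naris occluded, at a log2 fold change of 0.93 (SE 0.52, adjusted p = 0.453), which was -0.027 without the filter on low counts. The log2 ratios of CPM in the replicate pairs were 0.11 and 0.38. A gene that fills so much of a library distorts CPM, since its share is bounded. Alas2 stood at 787 and 1031, 1007 and 768, and 704 and 921 CPM in the same order, with overlap between all conditions. Its fold changes were -0.34, 0.17 and 0.51 (SE 0.41 to 0.43) for naris occluded against control, trained against control and trained against naris occluded, and each of these turned in sign under another scaling or filter.

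Outside the cluster, the summed hemoglobin RNA was lowest in trained libraries. Hbb-bs stood at 335 and 326 CPM in control, 444 and 468 in naris occluded and 141 and 258 in trained libraries, so that the 3 conditions did not overlap for this gene. For Hba-a1, Hba-a2, Hbb-bt and Alas2, trained replicate 2 lay within or above the control values. Over 15629 genes, edgeR called 1 of 5 members in trained against naris occluded, where 0.531% of genes were called. This was Hbb-bs, at a log2 fold change of -1.17 (SE 0.21, adjusted p = 0.0496; 0.00202 to 0.377 over 13 alternatives). Hba-a1, Hba-a2, Hbb-bt and Alas2 had fold changes of -0.79, -1.06, -1.15 and -0.86 with adjusted p of 0.153 or more by edgeR. With the replicate number as a block, Hba-a2 was called too (-1.15, adjusted p = 0.0293).

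The other comparisons called no member. In trained against control 0 of 5 passed (0.0064% of genes called), with Hbb-bs at -0.74 (SE 0.20, adjusted p = 0.394 by edgeR). At an unadjusted p under 0.05 there were 2 of 5 members and 1331 of 15629 genes. In naris occluded against control 0 of 5 passed (0.0064%), with Hbb-bs at 0.43 (SE 0.20, adjusted p = 0.969), and unadjusted 0 members and 791 genes. In replicate 2 against replicate 1 0 of 5 passed (0.441%), with 2 members and 1374 genes unadjusted. DESeq2 called 0 members in each of these 3. Without trained replicate 2, by contrast, 2 members were called in trained against control and 4 in trained against naris occluded, among 21 and 430 of 15956 genes, where the main comparisons called 1 and 83 of 15629. Of the hemoglobin UMIs in these sums, 79.1% came from the 55 hemoglobin-high cells. Without those cells no member was called in trained against naris occluded, but the difference was no smaller, with Hbb-bs at -1.35 (SE 0.33, adjusted p = 0.109 by edgeR). In cells under 10, hemoglobin stood at 203 and 144 CPM in naris occluded and 61.2 and 64.9 in trained libraries. The comparisons share control or other libraries, so their values are not independent.

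Alas2 was too sparse outside the cluster for a comparison of levels. Its UMIs numbered 11 and 5 in control, 12 and 7 in naris occluded and 1 and 8 in trained libraries. Of the gene lists described above, cell type markers aside, no gene that passed the count filter was called in any of the 8 edgeR fits. Within the cluster the filter left 2 of 9 heme synthesis genes, 0 of 7 other globins and 1 of 13 membrane genes. It left 1 of 11 regulators, 10 of 13 enzymes and other red cell RNAs and 3 of 13 heme and iron handling genes. The listed genes that it removed were not tested there.

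Barcodes were checked for sharing between libraries. Of 49931 distinct barcode sequences among annotated and unannotated cells, 1461 occurred in more than 1 library. Of the 219 red cell barcodes, 10 also occurred in another library, none as a red cell there. Of 11 annotated cells outside the cluster that carried such a barcode, 4 held hemoglobin and 2 were hemoglobin-high, against 0.107% hemoglobin-high among all cells outside the cluster. Library totals ran from 11841160 to 17065083 UMIs.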

How the data were processed

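Olfactory bulbs were dissociated with papain and sequenced with 10X 3′ v2 chemistry. The authors counted UMIs per gene and cell with Cell Ranger 2.0.0 on mm10, kept barcodes with over 200 genes, clustered them in Seurat 2.2.1 and removed doublets; the deposited raw counts and cluster names were used, with the mitochondrial fraction that the authors deposited per cell. The authors' normalized table was not used. In the trained libraries the replicate number at the start of the cell names was reversed against the authors' library column, which was followed, so all values of trained replicates 1 and 2, the sex pairing and the block depend on that column. Of 52549 barcodes, 1123 without a cluster name entered no comparison. The members and lists were chosen with earlier results of these data known. The named genes were the 5 members, the fixed lists by counts, and the 5 genes of most like pattern; some items are not reported here.

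Counts were summed per library for the red blood cell cluster and for all other annotated cells. They were tested with edgeR 4.0.16 (TMM, filterByExpr, quasi-likelihood, all 6 libraries, Benjamini-Hochberg over all genes) in R 4.3.3, with DESeq2 1.42.0 as an alternative. SE is the log2 fold change over the root of F. With 2 libraries against 2, an exact permutation test of 1 value could not pass 0.05, so none was used. Same-numbered libraries deviated together outside the cluster (correlations 0.40, 0.36 and 0.29), so the numbers pair them there. Sex and any other factor shared by replicate number cannot be told apart in this pairing. Within the cluster such libraries did not deviate together (0.07, -0.08 and -0.30). Depth was matched in 8 bins of UMIs per cell, and thinning used the hypergeometric expectation. Scripts were tested on simulated counts. Promoters were read with Biopython 1.88 from RefSeq.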

Additional observations from a re-analysis of the deposited data

Results flagged for a closer look

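In 8 comparisons the replicate pairs moved in opposite directions, the male pools one way and the female pools the other. They were picked on sign alone. Most of the comparisons looked at, which share libraries, had the same direction in both pairs. The difference between the pairs was not tested, and each direction rests on 1 library per condition. Values are the log2 ratio in replicate 2 minus that in replicate 1. For the share of red blood cells, naris occluded against control gave 0.25 (-0.11 in replicate 1, 0.14 in replicate 2). Within the red blood cell cluster, Hbb-bs in trained against control gave 0.15 (-0.020 and 0.13), and Alas2 gave -0.78 in naris occluded against control (0.36 and -0.42) and 0.78 in trained against naris occluded (-0.52 and 0.26). Outside the cluster, Hba-a1 in naris occluded against control gave -0.65 (0.59 in replicate 1, -0.055 in replicate 2) and Hbb-bt in trained against control 1.73 (-1.71 and 0.012), with replicate 2 close to 0 in both. Alas2 outside the cluster gave 4.12 in trained against control (-3.31 and 0.81) and 4.10 in trained against naris occluded (-3.60 and 0.51), from 1 UMI in trained replicate 1 and 8 in trained replicate 2.

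Hemoglobin also appeared in data that entered no comparison. The 1123 barcodes without a cluster name held 428 hemoglobin UMIs, above the 3 that a count of 0 allows, in 28.4% of the barcodes and with at most 27 in one. Thinned to 500 UMIs, 6.92% of these barcodes would hold one, as in annotated cells under 10 hemoglobin UMIs (6.92%). None had Alas2.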

How the results depend on the processing

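Of 345 values of single members under alternatives, 313 kept the sign of the main value and 32 changed it. These values cover all members outside the red blood cell cluster, but only Hbb-bs and Alas2 within it. Of the 28 main values, 1 passed an adjusted p of 0.05 by edgeR. The count of members called outside the red blood cell cluster in trained against naris occluded (main value 1) was 0 with RLE factors, library totals, without the hemoglobin-high cells (Hbb-bs at -1.35) or in cells of 1000 or more UMIs (-1.13), and 0 to 4 when single libraries were left out. In trained against control it was 0 to 2, with both calls made without trained replicate 2. Over all genes, trained against naris occluded called 83 in the main comparison, 23 with library totals, 199 without the filter, 265 with DESeq2, 1 in cells of 1000 or more UMIs and 0 to 430 when single libraries were left out.

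With the replicate number as a block, which pairs libraries of the same sex, 2 members (Hbb-bs and Hba-a2) and 448 genes were called outside the cluster in trained against naris occluded, and the number of red cells in trained against control was called at -1.59. The block changed no other call of a member or of red cell numbers.

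For red cell numbers, trained against naris occluded was -1.38 with TMM scaling, -1.54 with DESeq2 and -2.0 to -0.83 when single libraries were left out, and trained against control was -2.12 to -0.70. Replicate 2 against replicate 1 was -1.17 with TMM and -1.29 to -0.84, and naris occluded against control -0.77 to 0.82, turning without control replicate 1 or naris occluded replicate 2.

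The correlations of red cell share with hemoglobin RNA over all outside cells were 0.46 (Hba-a1), 0.49 (Hba-a2), 0.61 (Hbb-bs), 0.60 (Hbb-bt), 0.63 (Alas2) and 0.57 (sum), and without the 2 libraries farthest from the median share 0.81, 0.79, 0.80, 0.78, 0.66 and 0.80. Pearson's r of the main relation passed for all 6 measures as CPM and against red cell hemoglobin per annotated cell, while Spearman's rho for Alas2 did not (adjusted exact permutation p = 0.0583 and 0.103). As a mean of single-cell CPM, Hbb-bt in red cells was 56416. The low-cell Hbb-bs share was 53.3% with the hemoglobin-high cells included, and 85 cells held at least 5 hemoglobin UMIs.

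Signs turned as follows, and the cause was not tested. Within the red cluster only Hbb-bs and Alas2 were followed in this way. In the red cluster, Alas2 in naris occluded against control was 0.022 with library totals, 0.16 without the cell under 10 hemoglobin UMIs and 0.091 in cells with hemoglobin as at least 50% of UMIs. Without the filter, Hbb-bs was -0.28 in trained against control, -0.027 in trained against naris occluded and -0.41 between replicates, and Alas2 was -0.46, -0.44 and -0.31. With library totals Alas2 was -0.18 in trained against control and -0.20 in trained against naris occluded, where it was -0.00082 without the cell under 10. Leaving out libraries gave -0.24 to 0.79 for Hbb-bs and -0.59 to 0.69 for Alas2 in trained against control, -0.25 to 1.03 for Alas2 in trained against naris occluded, and -0.30 to 0.57 and -0.23 to 0.87 between replicates. Outside the cluster and without the hemoglobin-high cells, replicate 2 against replicate 1 was -0.61 for Hba-a1, -0.67 for Hba-a2, -0.57 for Hbb-bs and -0.89 for Hbb-bt. Leaving out libraries there gave -0.39 to 0.79 for Hbb-bt and -0.73 to 0.54 for Alas2 between replicates, -0.070 to 0.68 for Alas2 in naris occluded against control, -1.72 to 0.011 for Hbb-bt and -2.84 to 0.30 for Alas2 in trained against control, and -3.06 to 0.080 for Alas2 in trained against naris occluded. Alas2 outside the cluster fell below the filter in 12 fits, which gave no value. DESeq2 gave no adjusted p for 3 member values. With 1 library left in a condition, its spread was taken from the other conditions.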
